A study of Homo sapiens with 9 samples.

Results

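The genes described here are 10 targets that the progesterone receptor and the glucocorticoid receptor are known to share: FKBP5, SGK1, PER1, KLF9, DUSP1, ERRFI1, RGS2, IRS2, PDK4 and NDRG1. They were taken by symbol from the deposited gene table of histone H2A, where all 10 were found among 20318 protein-coding genes. The cells were T47D-MTVL, breast cancer cells of luminal type that carry an integrated reporter under the hormone-responsive MMTV promoter, and chromatin was read by ChIP-seq. Cells kept without serum for 1 day were exposed to R5020, a synthetic progestin, at 10 nM for 30 or 60 min, and unstimulated cells stood for 0 min. Histone H2A was read at 0, 30 and 60 min, and HP1γ, LSD1 and BPTF at 30 and 0 min, with 1 library for each antibody and time. No comparison had a replicate check, so every difference is a difference between libraries and carries no p-value. ChIP-seq gives no transcript levels, so the cell type was not checked against expressed markers.

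Both receptors are transcription factors that a steroid frees from a chaperone complex of HSP90 and immunophilins. They bind the same DNA element, an inverted repeat of TGTTCT with 3 bases between, often far from the gene start. BPTF is the largest subunit of NURF, a complex that slides nucleosomes, LSD1 is a histone demethylase, and HP1γ is a heterochromatin protein. All 3 have roles in progestin-dependent gene control in breast cancer cells. Several of these targets act as brakes on signalling, of the steroid receptors or of other pathways.

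Upstream of 3 of the genes, the authors' list of BPTF sites gained with hormone held 4 peaks. FKBP5, a co-chaperone that lowers the hormone affinity of the steroid receptors, had 2 of them, centred 38.2 and 43.1 kb before its start. KLF9, a zinc finger transcription factor, had 1 at 35.1 kb before its start, and NDRG1, a stress-response protein phosphorylated by SGK1, had 1 at 48.2 kb. The search covered each gene body plus 50 kb on each side. In all, 3 of 10 genes had a recruited peak, against 12.1% of 20305 genes of the table. The 4 recruited peaks made 2.79 per Mb of window (exact Poisson 95% interval 0.76 to 7.16, covering counting error only), against 0.91 per Mb over the windows of all genes. All 4 lay upstream of the start given in the deposited table, and 2 of them were at the same gene, FKBP5. By a later GENCODE annotation, described below, 1 of these 2 lies inside FKBP5. Over all genes, 34.2% of the pairs of a gene and a recruited peak in its window were upstream by the deposited start.

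The DNA under these sites on chromosomes 6 and 9 is shown because these were 3 of the 4 places of gained BPTF at the 10 genes. Bases were read from GRCh37, the build of the files, and are given 5′ to 3′ on the strand of the gene, here the minus strand. Capitals mark a loose form of the receptor element, GNACANNNTGTNC, where one was found, and otherwise the single site TGTTCT on either strand. The stretches are chr6:35694670-35694969 and chr6:35699652-35699951 for FKBP5, and chr9:73064346-73064645 for KLF9.
FKBP5 at -38.2 kb: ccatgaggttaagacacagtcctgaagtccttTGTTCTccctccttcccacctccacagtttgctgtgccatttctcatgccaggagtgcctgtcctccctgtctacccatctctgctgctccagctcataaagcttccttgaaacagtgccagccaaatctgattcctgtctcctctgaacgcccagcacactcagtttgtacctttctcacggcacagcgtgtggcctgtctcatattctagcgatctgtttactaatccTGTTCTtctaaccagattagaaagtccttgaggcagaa
FKBP5 at -43.1 kb: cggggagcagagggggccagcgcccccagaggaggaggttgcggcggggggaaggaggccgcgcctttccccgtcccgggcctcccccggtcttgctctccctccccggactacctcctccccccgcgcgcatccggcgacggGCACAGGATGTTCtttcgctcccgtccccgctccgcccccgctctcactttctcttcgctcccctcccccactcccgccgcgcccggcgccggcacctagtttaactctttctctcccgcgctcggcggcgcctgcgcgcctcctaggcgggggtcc
KLF9 at -35.1 kb: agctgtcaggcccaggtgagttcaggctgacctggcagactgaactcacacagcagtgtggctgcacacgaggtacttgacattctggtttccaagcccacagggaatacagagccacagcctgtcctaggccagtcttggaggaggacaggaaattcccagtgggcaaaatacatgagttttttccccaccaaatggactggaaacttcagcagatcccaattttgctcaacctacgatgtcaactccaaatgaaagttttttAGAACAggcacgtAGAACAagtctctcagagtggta

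The 3 stretches differed in composition. The FKBP5 stretch at -43.1 kb was 74.3% GC and held 1 loose element, while that at -38.2 kb was 49.7% GC and the KLF9 stretch 49.3% GC, each with 2 TGTTCT sites. A loose element was present in 2 of the 4 recruited peaks at these genes, the other being that of NDRG1. Over the whole lists it was present in 2.60% of 1848 recruited peaks and in 0.70% of 5546 displaced peaks. A TGTTCT site was present in all 4, against 44.2% of all recruited peaks. Such a match is a description of letters and not evidence of binding.

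By the later GENCODE annotation, which extends FKBP5 further upstream than the deposited table does, the peak at -38.2 kb (chromosome 6, 35694411 to 35695322) lay in an FKBP5 intron, 1.5 kb from the nearest FKBP5 transcript start. The peak at -43.1 kb (35699377 to 35700193) lay between genes, 3.4 kb from such a start. The KLF9 peak (chromosome 9, 73064346 to 73064985) also lay between genes. An HP1γ peak of unstimulated cells (35692884 to 35693431, score 47.97) ended 980 bases from the first FKBP5 site. It was the highest-scored HP1γ peak of 0 min around FKBP5. No HP1γ peak of 30 min lay within 2 kb of either site.

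Displacement of BPTF touched 1 gene. PDK4, the kinase that restrains pyruvate dehydrogenase, had a displaced BPTF peak 5.8 kb inside the gene, in an intron that its antisense transcript PDK4-AS1 also covers (chromosome 7, 95219796 to 95220268). This is 1 of 10 genes, beside 18.3% of all genes. A stretch of 300 bases of that peak, chr7:95219969-95220268 on the minus strand, holds 1 TGTTCT site in capitals and is shown as the only site of loss.
PDK4 at 5.8 kb: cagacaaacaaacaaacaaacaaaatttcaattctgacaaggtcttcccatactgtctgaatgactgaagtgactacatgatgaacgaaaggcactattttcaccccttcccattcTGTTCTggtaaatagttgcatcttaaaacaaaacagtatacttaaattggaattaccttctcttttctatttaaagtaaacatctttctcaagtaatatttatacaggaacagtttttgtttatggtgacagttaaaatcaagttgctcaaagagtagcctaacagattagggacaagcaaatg

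Just outside the windows lay displaced BPTF peaks 54.7 kb upstream of DUSP1 and 66.0 kb upstream of RGS2, and a recruited peak 94.4 kb upstream of ERRFI1. HP1γ peaks of 30 min also lay close beyond the limit, 51.5 kb upstream of ERRFI1, 54.1 kb upstream of RGS2 and 58.7 kb upstream of PER1, as did an LSD1 peak of 30 min 50.6 kb upstream of FKBP5. The recruited peak nearest to the start was 1179.8 kb away for SGK1, 1340.8 kb for PER1 and 2183.6 kb for IRS2. PER1, a clock repressor, had no peak of any of the 6 lists in its window, as had 20.7% of all genes.

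**Figure D1:**
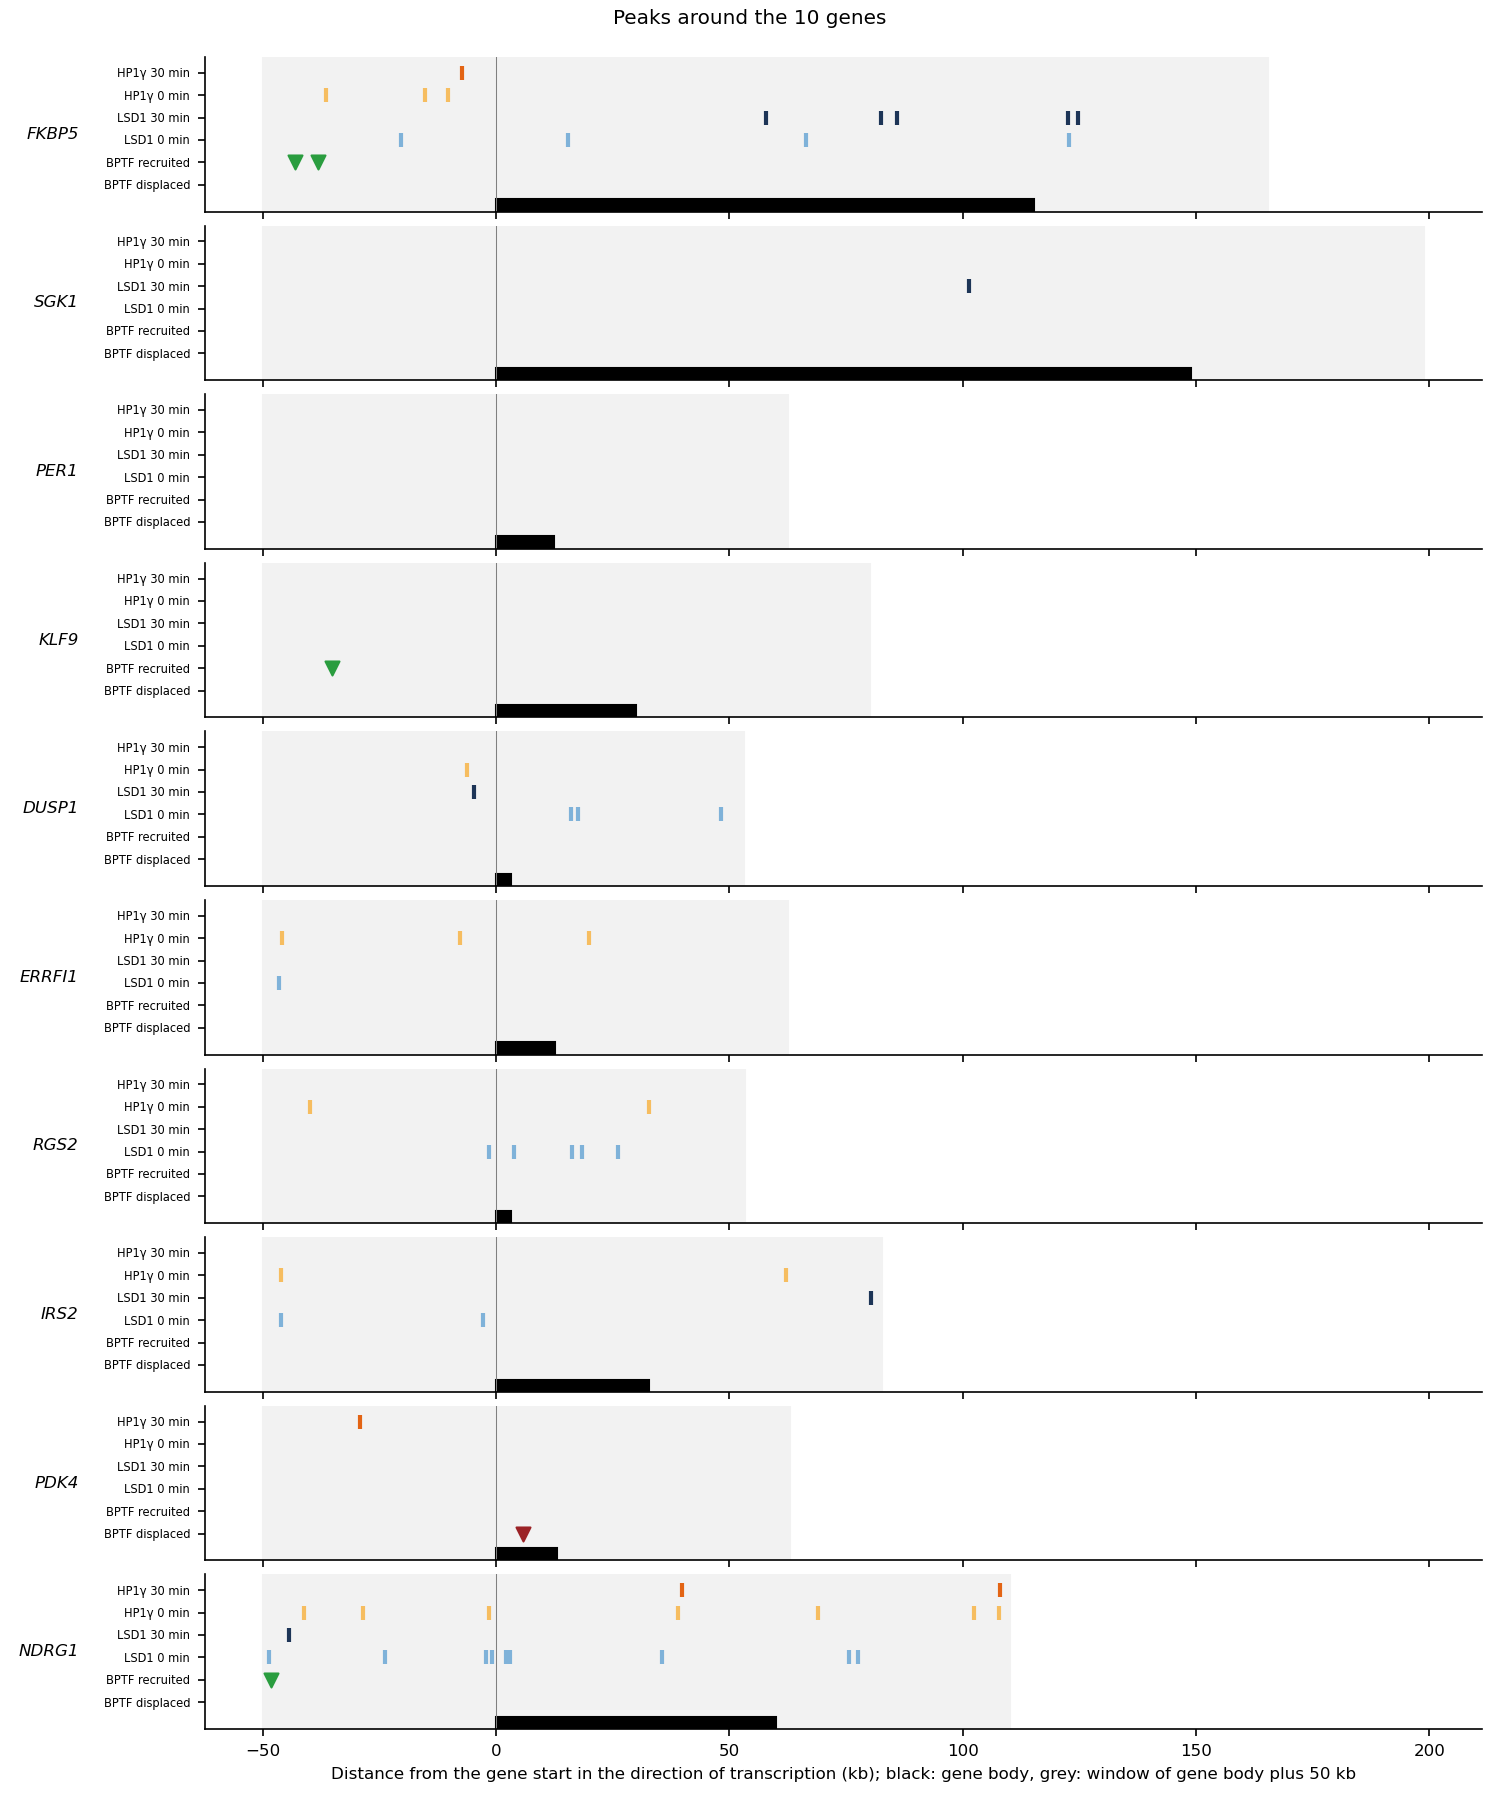
Position of each peak relative to the start of the 10 genes, in kb along the direction of transcription, with 1 row per peak list. Black bars are gene bodies and grey areas the windows searched. The 4 recruited BPTF peaks (green) all lie 35.1 to 48.2 kb upstream of the start in the deposited table. The row of LSD1 at 30 min is empty around RGS2, where that of 0 min holds 5 peaks.

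LSD1 stood at RGS2 before hormone and was not listed there after it. RGS2 speeds the shut-off of G protein signalling. Its window held 0 LSD1 peaks at 30 min and 5 at 0 min, and the 5 covered 3630 bases. The nearest to the start, centred 1.6 kb upstream (chromosome 1, 192776136 to 192777070), had a score of 67.74, higher than 97.0% of the LSD1 peaks of 0 min. The others lay 3.9, 16.3, 18.4 and 26.1 kb past the start, with scores of 44.29, 41.93, 33.26 and 56.86. No LSD1 peak at 30 min beside 5 or more at 0 min was found at 0.852% of all genes, a criterion chosen after the RGS2 values were seen. At the mean density of chromosome 1 the window would hold 0.77 LSD1 peaks at 30 min and 1.41 at 0 min. The whole LSD1 lists held 20495 peaks at 30 min and 34990 at 0 min. Of those of 0 min, 3.71% overlapped a peak of 30 min, so a peak not listed again was the usual case.

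The middle of the peak nearest to the start of RGS2, chr1:192776483-192776722 on the plus strand, is shown for its score. No other LSD1 peak of 0 min in the 10 windows had a higher one. The stretch shown held neither form of the element and no TGTTCT site.
RGS2 at -1.6 kb: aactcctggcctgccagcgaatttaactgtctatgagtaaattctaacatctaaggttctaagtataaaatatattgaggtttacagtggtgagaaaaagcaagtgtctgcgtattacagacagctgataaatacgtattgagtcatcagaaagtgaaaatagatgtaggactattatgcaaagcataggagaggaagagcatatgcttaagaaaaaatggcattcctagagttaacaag

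At FKBP5 the number of LSD1 peaks was nearly level, with 5 at 30 min and 4 at 0 min. Most positions differed, as they did over the whole lists, where 6.38% of LSD1 peaks of 30 min overlapped one of 0 min. A single place recurred beyond the end of the gene, centred 122.6 kb past the start at 30 min and 122.8 kb at 0 min, with scores of 30.92 at 30 min and 41.97 at 0 min. Inside the gene, 3 peaks were listed at 30 min, centred 57.8, 82.4 and 85.9 kb past the start, and 2 at 0 min, at 15.5 and 66.3 kb. The peak at 85.9 kb (chromosome 6, 35570567 to 35571078) had the highest LSD1 score around the gene at 30 min, 47.52, above 88.7% of that list.

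That intronic peak lay 694 bases from the sole strict receptor element in any of the 10 windows, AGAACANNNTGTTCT, at chromosome 6, 35569859 to 35569873. A strict element was present in 1 of 10 windows, against 2.56% of the windows of all genes. The nearest LSD1 peak of 0 min was 20305 bases away. Over the genome, 6 of 565 strict elements (1.06%) lay within 1 kb of an LSD1 peak of 30 min and 23 (4.07%) within 1 kb of one of 0 min, a distance chosen after the FKBP5 value was seen. The element and 20 bases on either side, chr6:35569839-35569893 on the minus strand, are given with the element in capitals, followed by the middle of the LSD1 peak, chr6:35570702-35570941, in which none of the motifs was found.
FKBP5 element: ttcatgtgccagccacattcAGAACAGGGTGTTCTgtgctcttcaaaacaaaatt
FKBP5 LSD1 peak: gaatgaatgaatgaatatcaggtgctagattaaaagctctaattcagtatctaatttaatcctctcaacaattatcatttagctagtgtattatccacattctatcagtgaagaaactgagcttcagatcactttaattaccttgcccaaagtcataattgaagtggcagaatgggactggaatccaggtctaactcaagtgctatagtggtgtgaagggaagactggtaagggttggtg

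Loose elements numbered 33 in the 10 windows, or 23.1 per Mb, against 13.4 per Mb over all gene windows, and 9 of 10 genes had at least 1, beside 80.9% of all genes. FKBP5 and SGK1 had 7 each, NDRG1 had 6, and PDK4 had none. The promoters, from 250 bases before to 50 after the start, were nearly free of these letters. A single promoter was read per gene, at its start in the deposited table. Other transcript starts were not searched, and the later annotation lists 30 transcripts for SGK1. None of the 10 held a strict or loose element, and across all genes 0 and 0.24% of promoters did. TGTTCT was found in the RGS2 promoter alone of the 10, against 12.5% of all promoters.

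At the remaining brakes on signalling, no LSD1 or HP1γ peak was listed at the same place at both times. Over the whole lists 6.38% of LSD1 and 5.76% of HP1γ peaks of 30 min overlapped one of 0 min. ERRFI1 and RGS2 had 0 peaks of either protein at 30 min, so none could recur there. DUSP1, a phosphatase of MAP kinases, had 1 LSD1 peak at 30 min, 4.8 kb upstream with a score of 30.16, and 3 at 0 min, all downstream at 16.0, 17.6 and 48.2 kb. It had 0 HP1γ peaks at 30 min and 1 at 0 min, 6.3 kb upstream. ERRFI1, an inhibitor of EGF receptor kinases, had 0 LSD1 peaks at 30 min and 1 at 0 min, and 0 HP1γ peaks at 30 min and 3 at 0 min. At the far upstream end of its window the HP1γ and LSD1 peaks of 0 min were 119 bases apart. RGS2 had 0 HP1γ peaks at 30 min and 2 at 0 min, with scores of 35.1 and 37.47. At chromosome density the DUSP1 window would hold 0.98 LSD1 peaks at 30 min and 1.71 at 0 min, and 1.1 and 1.52 HP1γ peaks. That of ERRFI1 would hold 0.84 and 1.54 LSD1 peaks, and 0.98 and 1.35 HP1γ peaks. The RGS2 window would hold 0.9 and 1.24 HP1γ peaks.

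Among the genes of kinase signalling and fuel use, SGK1 and PDK4 were nearly bare and IRS2 and NDRG1 were not. SGK1, a kinase that controls ion channels and cell survival, had 1 LSD1 peak at 30 min in an intron (score 32.61) and none at 0 min, and no HP1γ peak at either time. PDK4 had 1 HP1γ peak at 30 min, 29.1 kb upstream, and none at 0 min, and no LSD1 peak. IRS2, the adaptor of the insulin receptor, had 1 LSD1 peak at 30 min and 2 at 0 min, one of which lay 2.9 kb upstream of its start. The other, 46.2 kb upstream, overlapped 1 of the 2 HP1γ peaks of 0 min, and no HP1γ peak was listed at 30 min.

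NDRG1 held the most peaks. It had 1 LSD1 peak at 30 min and 9 at 0 min, and 2 HP1γ peaks at 30 min and 7 at 0 min. Of its LSD1 peaks of 0 min, 4 lay within 1 kb of the start of a protein-coding NDRG1 transcript. No other LSD1 peak in the 10 windows lay so close to one. The later annotation lists 61 transcripts for NDRG1 and 1 for KLF9, DUSP1 and IRS2, and the part of this in the number was not tested. The share of all LSD1 peaks so close to a start was not computed. The LSD1 peak at the far upstream end of the window (score 50.49) overlapped the recruited BPTF peak, as 3.46% of all recruited peaks overlapped LSD1 of 0 min. NDRG1 lies on chromosome 8, where LSD1 peaks numbered 11.6 per Mb at 30 min and 24.6 per Mb at 0 min, so at chromosome density its window would hold 1.86 and 3.93. KLF9 and PER1 had no LSD1 or HP1γ peak at either time.

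Over the 10 windows together, 1.431 Mb of sequence with no overlap between genes, fewer LSD1 and HP1γ peaks were listed after hormone. LSD1 had 9 peaks at 30 min and 24 at 0 min, covering 4156 and 13042 bases, with mean scores of 33.95 and 38.17. HP1γ had 4 at 30 min and 18 at 0 min, covering 1764 and 8937 bases, with mean scores of 42.6 and 37.24. The chromosome densities would give 9.7 and 16.4 LSD1 peaks and 11.2 and 15.3 HP1γ peaks. With windows of 100 kb on each side HP1γ had 16 peaks at 30 min. Without NDRG1 there were 8 LSD1 peaks at 30 min and 15 at 0 min, and 2 HP1γ peaks at 30 min and 11 at 0 min. Depths of these libraries are unknown, and their part in the peak numbers and scores was not tested.

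The number of genes with a peak was near the background in most lists. LSD1 peaks were found at 5 of 10 genes at 30 min and at 6 at 0 min, against 49.9% and 44.3% of all genes. HP1γ peaks were found at 3 of 10 genes at 30 min and at 6 at 0 min, against 50% and 53.4%. Positions seldom recurred: 1 of 9 LSD1 peaks and 1 of 4 HP1γ peaks of 30 min overlapped a peak of the same protein at 0 min, against 6.38% and 5.76% over the whole lists. HP1γ overlapped LSD1 at 0 min in 2 of 18 peaks, at NDRG1 and IRS2, against 7.83% of that list.

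**Figure D2:**
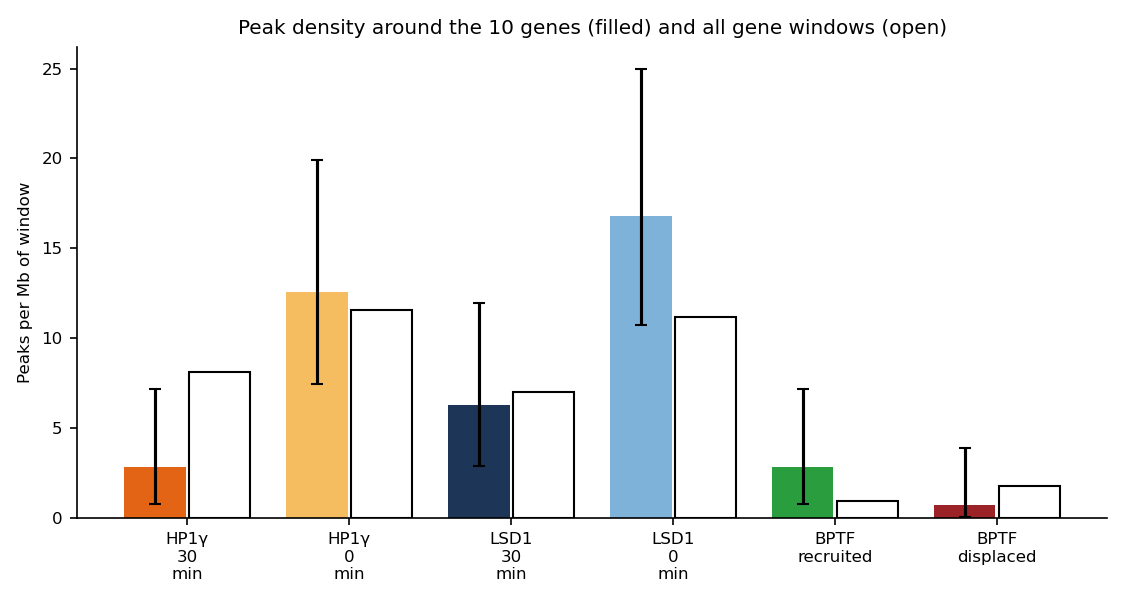
Peaks per Mb in the windows of the 10 genes (filled bars, with exact Poisson 95% intervals) and in the windows of all genes of the table (open bars), for the 6 peak lists. Recruited BPTF stands at 2.79 per Mb in the 10 windows against 0.91 in all windows, and HP1γ at 30 min at 2.79 against 8.12.

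Histone H2A over the gene bodies moved little. The files give H2A as RPKM, a read number scaled to gene length and library size, and the change was the log2 ratio of RPKM plus 0.05. Depth, recovered from the steps of 1 read in short genes, was 132.7 to 168.2 M reads per library. None of the 10 genes passed 0.5 on the log2 scale at 30 or 60 min, in either direction. Over 19709 genes 0.345% read higher and 1.99% lower past that limit at 30 min, and 0.249% and 0.639% at 60 min. None passed it with the trend on GC content removed, beside 0.391% higher and 0.233% lower of all genes at 30 min and 0.386% and 0.279% at 60 min. At 30 min 8 of 10 genes read lower than at 0 min, beside 71.3% of all genes, with a median of -0.09 beside -0.14.

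Gene GC content moved with the change in all genes and in these. At 30 min the median over all genes was 0.23 in the tenth of genes poorest in GC and -0.34 in the richest. PDK4, at 36.1% GC the poorest of the 10, had the highest change, and PER1, at 58.8% the richest, had the lowest. When a running median over GC was subtracted, 5 genes read lower and 5 higher, beside 49.8% lower of all genes, and the median was -0.003. The part of GC in the changes was not tested beyond this subtraction.

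**Figure D3:**
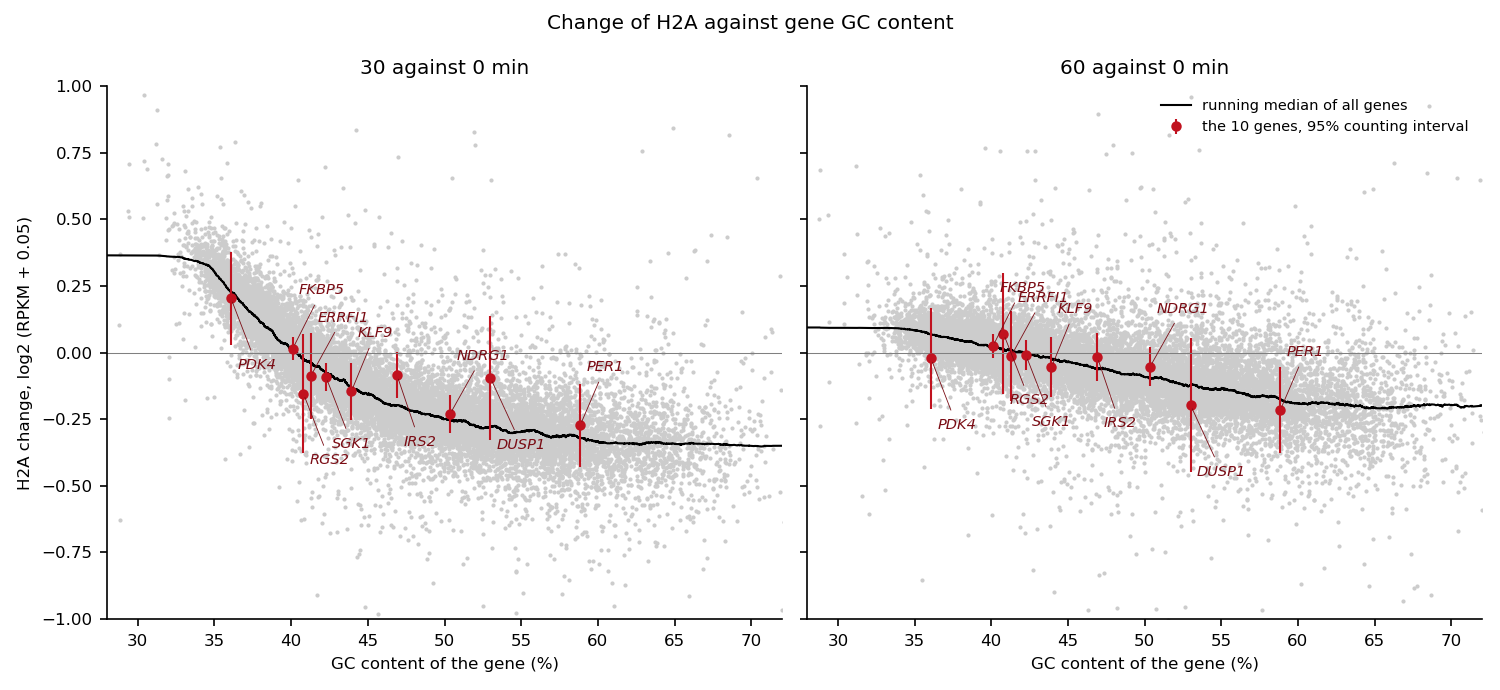
Change of H2A on the log2 scale against gene GC content at 30 and 60 min, each against 0 min, for genes averaging 0.1 RPKM or more (grey; a few lie beyond the axes) and the 10 genes (red, with 95% counting intervals). The 10 genes lie on both sides of the running median of all genes (black line), with PDK4 at 0.20 and PER1 at -0.27 at 30 min. Furthest off the line at 30 min are DUSP1 at 0.18, RGS2 at -0.13 and IRS2 at 0.11.

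FKBP5 had 1.957, 1.978 and 1.990 RPKM at 0, 30 and 60 min. The level at 60 min was 1.69% above that at 0 min, with log2 changes of 0.015 at 30 min and 0.02 at 60 min and a counting standard error of 0.02 each. This error was the narrowest of the 10 genes.

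The brakes DUSP1, ERRFI1 and RGS2 are short genes with wider errors. DUSP1 had 0.640, 0.596 and 0.552 RPKM at 0, 30 and 60 min. Its changes of -0.10 and -0.20 were within 2 counting standard errors (0.12 and 0.13), and relative to the GC trend they became 0.18 and -0.07. The value of 0.18 was the largest of the 10 genes at 30 min on that scale. ERRFI1 had 1.66, 1.56 and 1.65 RPKM, with changes of -0.09 and -0.01. RGS2 had 2.74, 2.46 and 2.88 RPKM. It was lowest at 30 min and highest at 60 min, with changes of -0.15 (standard error 0.11) and 0.07 (0.12), and of -0.13 and 0.06 off the GC trend.

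Of the genes of kinase signalling and fuel use, PDK4 read higher at 30 min and SGK1, IRS2 and NDRG1 read lower. SGK1 had 7.60, 7.13 and 7.54 RPKM at 0, 30 and 60 min, with changes of -0.09 (standard error 0.03) and -0.01. PDK4 had 1.25, 1.45 and 1.23 RPKM, and it was the gene of the 10 that was highest at 30 min. Its change of 0.20 (standard error 0.09) at 30 min turned to -0.02 off the GC trend. IRS2 had 0.438, 0.410 and 0.433 RPKM. Its change of -0.09 at 30 min (standard error 0.04) turned to 0.11 off the GC trend, the one value past 2 counting standard errors on that scale, as 12.6% of all genes had. NDRG1 had 23.6, 20.1 and 22.7 RPKM, with changes of -0.23 (standard error 0.04) and -0.05. Off the GC trend NDRG1 had 0.02 and 0.04. As deposited, 5 of the 10 genes (SGK1, PER1, KLF9, PDK4 and NDRG1) were past 2 counting standard errors at 30 min, beside 63.9% of all genes. At 60 min 1 gene, PER1, was past that limit, beside 27.4% of all genes.

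The transcriptional regulators PER1 and KLF9 read lower at both times. PER1 had 7.27, 6.01 and 6.25 RPKM at 0, 30 and 60 min, with changes of -0.27 and -0.22 (standard error 0.08 each). These turned to 0.05 and -0.04 off the GC trend. Reads were counted on both strands, and PER1 overlaps the gene ENSG00000263620, so their reads cannot be told apart. KLF9 had 0.324, 0.288 and 0.310 RPKM, with changes of -0.15 (standard error 0.05) and -0.06, and of -0.02 and -0.03 off the GC trend.

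**Figure D4:**
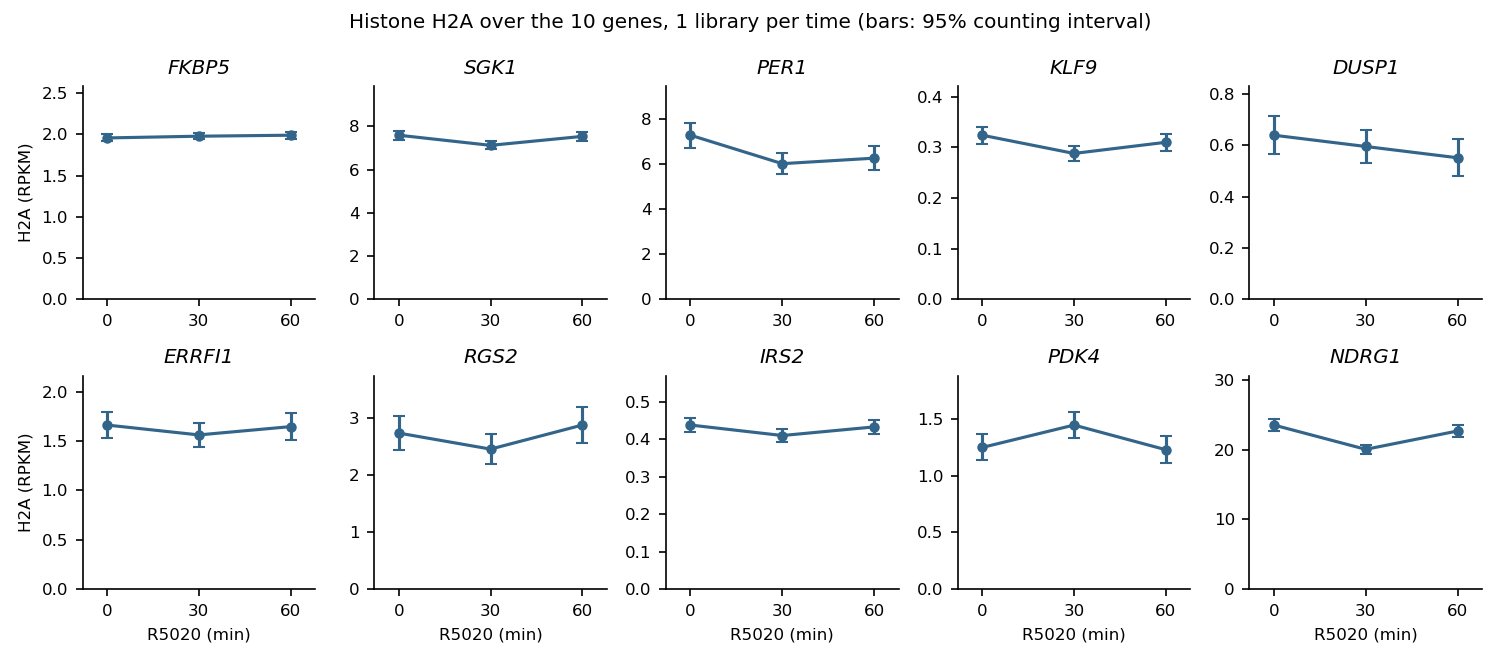
H2A in RPKM at 0, 30 and 60 min of R5020 for each of the 10 genes, 1 library per time, with bars for the 95% counting interval. Each axis starts at 0; 7 genes are lowest at 30 min, PDK4 is highest there, and FKBP5 lies between 1.957 and 1.990.

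In 7 of 10 genes the level was lowest at 30 min, as in 66.1% of all genes, and 8 of 10 were higher at 60 than at 30 min, as were 71.5%. At 60 min 8 of 10 genes read lower than at 0 min, beside 61.2% of all genes, with medians of -0.02 for the 10 genes and -0.03 for all genes. Off the GC trend 6 read lower, beside 50% of all genes. The 30 and 60 min changes share the 0 min library. Levels were not ranked between genes, since the deposited RPKM adds up over a gene's annotated transcripts, of which the later annotation lists 1 for KLF9, DUSP1 and IRS2 and 61 for NDRG1.

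Neighbouring genes offered a local comparison for 6 of the genes. FKBP5 had 0.015 at 30 min and 0.006 off the GC trend, and its neighbour ARMC12 had -0.22 and -0.02. PER1 had -0.27, within the range of its 7 neighbours, -0.33 to -0.18, whose median was -0.24. Among these, ENSG00000263620 at -0.24 overlaps PER1 and shares reads with it, so it is not a separate comparison. KLF9 had -0.15 and its neighbour SMC5 0.23, and off the GC trend KLF9 had -0.02 and SMC5 0.02. ERRFI1 had -0.09 and PARK7 -0.26, and NDRG1 had -0.23 and CCN4 -0.27. PDK4 had 0.20, between its neighbours ASB4 at 0.06 and ENSG00000269449 at 0.46, and off the GC trend PDK4 had -0.02 and these had -0.04 and 0.49.

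The receptors and their chaperones lay on both sides of 0. Of 15 such genes 8 read lower at 30 min and 7 higher, beside 71.3% lower of all genes. The median was -0.08, or -0.01 against the GC trend. None passed 0.5, beside 0.345% higher and 1.99% lower of all genes. The chaperone genes HSPA8, HSP90AB1 and STIP1 had the lowest changes, at -0.37, -0.32 and -0.26. The coactivator NCOA1 had 0.20, the glucocorticoid receptor NR3C1 0.15 and the progesterone receptor PGR 0.12, the highest of that list. Off the GC trend these 3 lay between -0.02 and 0.01, while HSPA8 had -0.23.

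A wider list of 30 other progestin or glucocorticoid response genes read lower in 27 at 30 min, and their median was -0.23. Against the GC trend 16 read lower and the median was -0.01. MT2A, a metallothionein, had -0.66 and HSD11B2, which inactivates cortisol, had -0.58, the members of that list past 0.5, and off the trend they had -0.37 and -0.26. ANGPTL4, an inhibitor of lipoprotein lipase, had -0.48, TIPARP 0.14, SLC19A2 0.11 and PHLDA1 0.04. At 60 min 23 of the 30 read lower, with a median of -0.05, beside 61.2% and -0.03 for all genes.

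Close relatives of the 10 genes, 19 in all, read lower in 14 at 30 min, beside 71.3% of all genes. Their median was -0.18, or 0.02 against the GC trend. RGS1 was the only gene past 0.5, at 0.58 (counting standard error 0.138) with 33.6% GC, and had 0.24 off the trend. Of all genes 0.345% passed 0.5 on the higher side. RGS16 had -0.44 (standard error 0.08), DUSP2 -0.41 (0.199) and SGK2 -0.38 (0.06), while SGK3 had 0.09 and PER3 and PDK3 0.04 each. Of 70 candidates in these lists, the 3 whose changes at 30 and 60 min off the GC trend lay closest to those of DUSP1 were CDKN1C, DUSP4 and KLF13. Their Euclidean distances were 0.063, 0.084 and 0.093, over 3 libraries. All 3 distances were smaller than the counting standard errors of DUSP1 itself, 0.12 and 0.13, so the order of likeness lay within counting error. Luminal keratins and factors read lower at 30 min in 6 of 8 genes, beside 71.3% of all genes. Their median was -0.21, or -0.004 off the trend.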

How the data were processed

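The series holds 9 ChIP-seq libraries, 1 for each of 9 antibody and time groups taken from the sample titles. Bowtie 1.0.0, HOMER 4.7.2 and build hg19 are named in the submitters' processing notes. The deposited H2A values are RPKM from HOMER, on both strands over GENCODE 18 genes, per the file headers. In the deposited peak lists of HP1γ and LSD1 each peak has a score of 30 or more. What the score is, the caller and any control are not given in the sources used here. Of BPTF, the lists deposited by the authors hold positions without a score, and their criterion for a change was likewise not given. The score is the authors' own, and percentiles were taken within a list. Where scores of different lists stand side by side, it is not known whether their scales match.

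The 10 genes and all lists were chosen with earlier results of these data known. RPKM changes are on the log2(RPKM + 0.05) scale, on which low genes appear to change less than they did, over 19709 genes averaging 0.1 RPKM or more. The GC trend was a running median over 501 genes. Depth was fitted so that low RPKM of genes with 1 transcript and under 600 bases came out as whole reads; at a tolerance of 0.05 reads 95.3% to 98.8% did. Counting standard errors used these reads divided by the transcript number of GENCODE 44 lifted to GRCh37, which also gave 2231 missing symbols and peak annotation. Peaks counted in a window when they overlapped it by at least 1 base. A promoter peak lay within 1 kb of a protein-coding transcript start. Motifs were searched on both strands. Code was tested on simulated data. Named genes of the other lists were the 3 highest and 3 lowest changes at 30 min and any past 0.5, beside all 10 genes. For each gene and list the highest-scored and nearest peaks were examined. Python 3.11.15, pandas 2.3.3, scipy 1.17.1 and pysam 0.24.0 were used. Alternatives covered the pseudocount, scaling, GC trend, filter, window, overlap and score.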

Additional observations from a re-analysis of the deposited data

How the results depend on the processing

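No paired analysis was possible because each group held 1 library, and no replicate could be left out. None of the 10 genes passed 0.5 in H2A under any setting tried. Centred on the median of all genes, 4 of 10 read lower at 30 min and 4 at 60 min, in place of 8 and 8, and the median at 30 min became 0.05. Relative to the GC trend 5 read lower at 30 min. The cause was not tested. A pseudocount of 0.5 and no filter on low values kept the sign of every median of the 10 genes.

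Peak numbers follow the window by construction. Within the gene body plus 5 kb there were 1 HP1γ peak at 30 min (1 gene) and 2 at 0 min (1 gene), 5 LSD1 peaks at 30 min (3 genes) and 10 at 0 min, and 0 recruited BPTF peaks (0 genes). Of all genes, 25.7% had an HP1γ peak of 30 min and 29.9% one of 0 min within 5 kb, 24.5% an LSD1 peak of 30 min and 5.3% a recruited BPTF peak, so 0 of 10 genes for the last is near the background. Within 100 kb there were 16 HP1γ peaks at 30 min (8 genes), 17 LSD1 peaks at 30 min, and 3 displaced BPTF peaks (3 genes, beside 26.2% of all genes). At 100 kb HP1γ at 30 min thus no longer stood low, with 63.6% of all genes having such a peak. Recruited BPTF peaks numbered 6 there, at 4 genes, against 18.5% of all genes. At a score of at least 50 there remained 0 HP1γ peaks at 30 min (0 genes) and 1 at 0 min (1 gene). LSD1 kept 0 peaks at 30 min (0 genes) and 3 at 0 min (2 genes). The whole lists had median scores of 35.63 to 37.34, below that limit. The share of all genes with a peak at that score was not computed, so these numbers have no background. Requiring the peak centre in the window left every number of genes within 1.5 times. Unknown depth limits all peak comparisons, the lowest score of 30 those of HP1γ and LSD1, and counting error limits H2A at DUSP1 and RGS2.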
